A study of Canis lupus familiaris with 13 samples.

Results

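Extracellular ATP and adenosine were followed through the genes that cleave, degrade and sense them in canine soft tissue sarcomas. The 10 genes were ENTPD1, ENTPD2, ENTPD3, ENPP1, NT5E, ADA, ADORA1, ADORA2A, ADORA2B and ADORA3. They were found by gene symbol in the array's annotation and were read by 16 of the 42924 probe sets tested, or 10 of 15115 named genes. ENTPD2 was chosen by its difference between the groups described here, so its difference is given as a description with no test. The other 9 genes were added for their function, with results of these tumours already known. RNA came from 13 primary tumours that had received no treatment. Of these, 5 belonged to the metastatic group and 8 to the non-metastatic group, defined by no metastasis for 1 year or longer. The labels give no breed, age, tumour subtype or site for either group, and do not say whether each tumour came from a separate dog. If they did not, p-values measure only the spread between these samples.

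ATP released from stressed or dying cells acts on P2 receptors as an alarm signal. Membrane enzymes of the ENTPD and ENPP families cut it to ADP or AMP, and NT5E, also known as CD73, cuts AMP to adenosine. Adenosine acts on 4 G protein-coupled receptors and, in tumours of humans and mice, is known for damping T cell and natural killer cell activity. ADA converts adenosine to inosine, which PNP breaks down further.

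The deposited values were read as log2 intensities, so 1 unit is a doubling of signal. They are levels of a probe set and cannot be ranked between probe sets. The arrays were placed in 3 sets by the level of bacterial spike-in transcripts and the gap between their 3′ and 5′ values. These sets are called labelling batches here, inferred from those values and not taken from a label. Batch A held all 5 metastatic tumours and non-metastatic replicates 5 to 8. Batch B held non-metastatic replicates 1, 3 and 4, and batch C held non-metastatic replicate 2 alone. Non-metastatic replicate 2 also stood apart over the 5000 most variable probe sets, with a mean correlation of 0.789 with the metastatic tumours and 0.753 with the other non-metastatic ones. The other non-metastatic tumours had 0.662 to 0.79 and 0.83 to 0.878 for the same correlations. Differences are therefore also given within batch A and without that tumour. Spike-in probe sets gave values of 2.63 to 7.16 in arrays without their target, with a median of 4.14. Most of these values lay under 5.18. That the target was absent was read from low spike-in signal and not from a label. The highest value, 7.16, was taken as a strict limit. Of the 16 probe sets, 11 had a mean not above 7.16, as did 56.5% of all probe sets. Values not above 7.16 are described as not told apart from absence of target, although those above 5.18 exceed most values without target.

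ENTPD2, which hydrolyses ATP mainly to ADP and in rodents is found on glial and perivascular cells, was low in all 5 metastatic tumours and high in 7 of 8 non-metastatic ones. Its values were 4.57, 4.75, 4.74, 4.78 and 4.56 in metastatic replicates 1 to 5. In the non-metastatic tumours they were 8.51, 4.92, 9.13, 8.74, 8.94, 7.75, 9.26 and 8.55 for replicates 1 to 8. The groups did not overlap, but non-metastatic replicate 2, at 4.92, lay within 1 unit of the metastatic tumours and over 2 units under its own group. The metastatic values all lay under 7.16, so they are not told apart from absence of signal. The means were 4.68 ± 0.11 in metastatic tumours (SD, n = 5) and 8.22 ± 1.41 in non-metastatic tumours (SD, n = 8), a log2 difference in signal of -3.54 ± 0.57 (SE). Without non-metastatic replicate 2 the difference was -4.02 ± 0.22, and within batch A it was -3.94 ± 0.26. As the RNA came from whole tumours, fewer cells that make a transcript and less of it in each cell cannot be told apart, here and for every gene that follows.

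ENTPD1, also known as CD39, which takes ATP and ADP to AMP on leukocytes and endothelium, had the same mean in both groups. Its values in metastatic replicates 1 to 5 were 6.08, 6.18, 7.71, 6.26 and 6.08, and those of non-metastatic tumours ran from 5.87 over a median of 6.42 to 7.05. Metastatic replicate 3 was the single tumour above 7.16. The log2 difference was 0.00 ± 0.27 (SE), and limma's adjusted p was 0.995.

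ENTPD3, which hydrolyses ATP and ADP and in rodents is found on neurons and pancreatic islets, was lower by mean in metastatic tumours without passing the test. It had 6.13, 6.10, 6.41, 6.04 and 7.27 in metastatic replicates 1 to 5, against 6.59 to 7.83 in non-metastatic tumours with a median of 6.94. Metastatic replicate 5 was the only metastatic tumour inside the non-metastatic range. The difference was -0.64 ± 0.24 with a limma adjusted p of 0.13, and it passed the threshold of 0.05 when metastatic replicate 5 was left out, at -0.86.

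ENPP1, which cleaves ATP to AMP and pyrophosphate and also degrades the STING ligand cGAMP, was higher by mean in metastatic tumours without passing the test. Metastatic replicates 1 to 5 had 6.58, 7.74, 8.14, 6.71 and 6.59. Non-metastatic tumours had 5.75 to 6.88, with a median of 6.30. Metastatic replicates 2 and 3 were the 2 tumours above 7.16, and the others of both groups overlapped. The difference was 0.81 ± 0.27 over all tumours (limma adjusted p = 0.0995) and 0.65 ± 0.35 within batch A (adjusted p = 0.331).

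**Figure D1:**
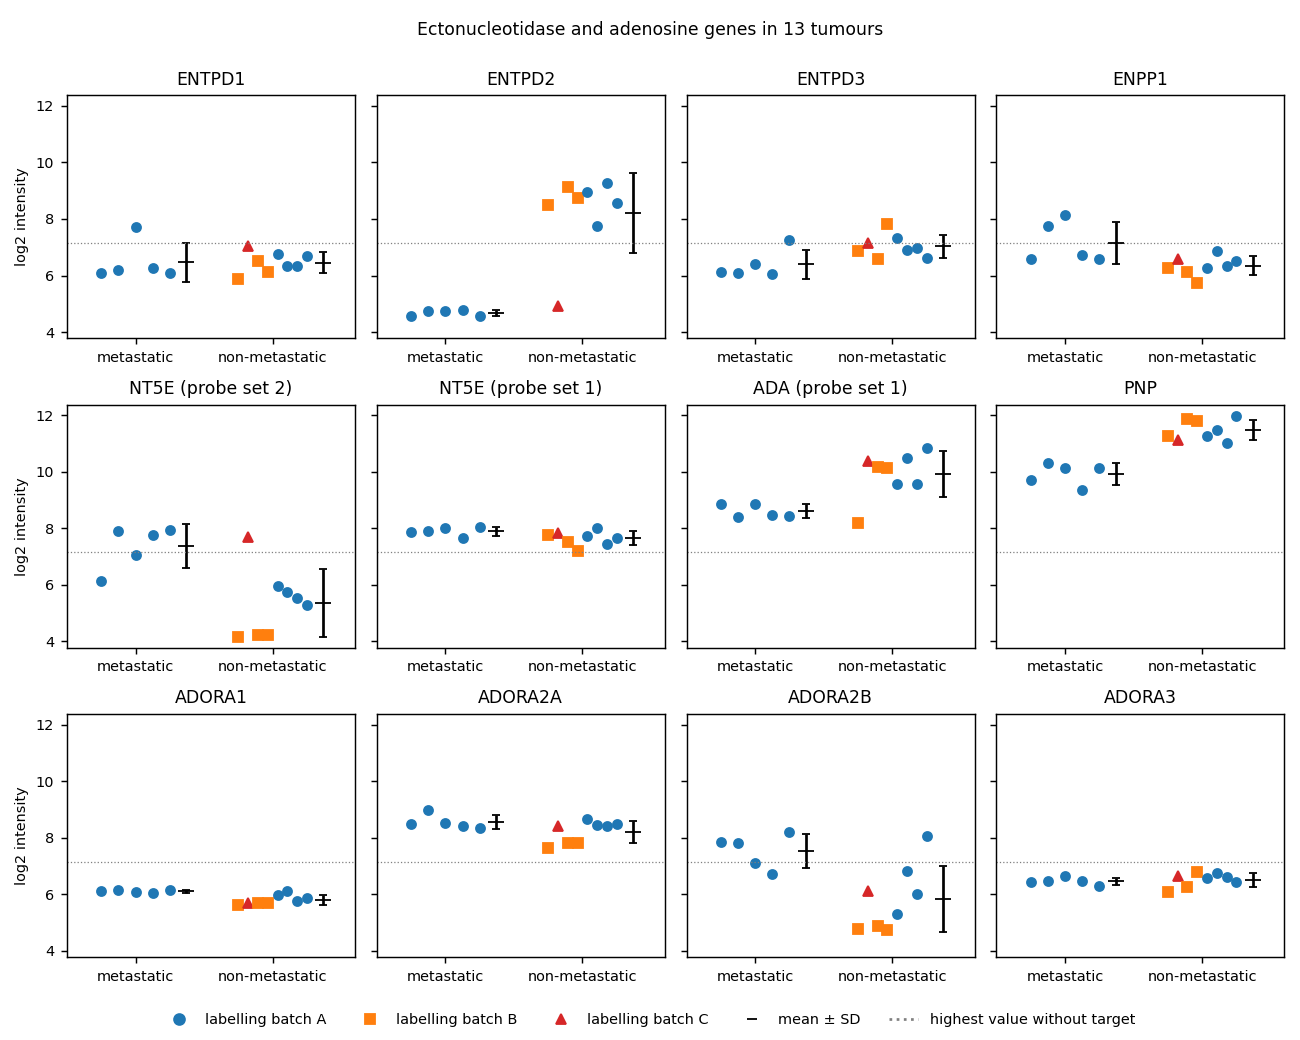
Log2 intensity (vertical axis) of the 10 genes and of PNP in each tumour, with metastatic tumours left of non-metastatic ones in every panel. Each point is a tumour, its colour and shape give the labelling batch, bars are the mean ± SD, and the dotted line is the highest value without target, 7.16. ENTPD2 is 4.56 to 4.78 in metastatic tumours, and the triangle at 4.92 is non-metastatic replicate 2.

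NT5E, the enzyme that makes adenosine from AMP, was higher in metastatic tumours at 2 of its 4 probe sets, which are numbered here by falling mean over all tumours. At probe set 2 the metastatic replicates 1 to 5 had 6.14, 7.91, 7.06, 7.78 and 7.95, and the non-metastatic replicates 1 to 8 had 4.17, 7.71, 4.24, 4.24, 5.96, 5.74, 5.55 and 5.30. Non-metastatic replicate 2 lay inside the metastatic range, and every other non-metastatic tumour lay under the lowest metastatic one. The difference was 2.0 ± 0.54 (SE) with a limma adjusted p of 0.0477. Values above 7.16 were found in 3 of 5 metastatic tumours and 1 of 8 non-metastatic ones, so most non-metastatic values are not told apart from absence of signal.

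NT5E probe set 3 moved with probe set 2. It had 5.91, 7.45, 6.74, 7.51 and 7.45 in metastatic replicates 1 to 5, against 4.31 to 6.71 in non-metastatic tumours with a median of 5.16. Again non-metastatic replicate 2 was the one that overlapped, at 6.71. The difference was 1.82 ± 0.41 with a limma adjusted p of 0.0232, and values above 7.16 were found in 3 metastatic and 0 non-metastatic tumours.

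The other NT5E probe sets showed no such difference. Probe set 1, the one with the highest mean, had 7.86, 7.89, 8.03, 7.66 and 8.06 in metastatic replicates 1 to 5 and 7.21 to 8.03 in non-metastatic tumours (median 7.70), a difference of 0.25 ± 0.14 (limma adjusted p = 0.291). Probe set 4 stayed between 3.50 and 4.07 in metastatic tumours and between 3.38 and 5.06 in non-metastatic ones, where it is not told apart from absence of signal, and its difference was -0.25 ± 0.24 (adjusted p = 0.529). Which transcripts or regions the 4 probe sets read was not analysed here, so the gene's call rests on which probe set is taken.

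Labelling batch moved with NT5E. At probe set 2 the 3 non-metastatic tumours of batch B averaged 4.22 ± 0.04 and the 4 of batch A 5.64 ± 0.28, a difference of -1.42 ± 0.17 (limma adjusted p = 0.0037). Within batch A, metastatic tumours still had the higher values at both probe sets, by 1.73 ± 0.37 (adjusted p = 0.0423) and 1.57 ± 0.34 (adjusted p = 0.0443), and the groups did not overlap. When only batch B was left out, so that non-metastatic replicate 2 weighed more, the differences were 1.32 at both probe sets and neither passed (adjusted p = 0.251 and 0.142). The call at probe set 2 was lost on leaving out any single tumour other than non-metastatic replicate 2, with differences of 1.83 to 2.34. At probe set 3 it was lost without metastatic replicate 2, 4 or 5, and the differences ran from 1.69 to 2.10.

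ADA, which removes adenosine, was lower in metastatic tumours at all 4 probe sets by mean, and 2 of them passed the test. At probe set 1, numbered in the same way, the metastatic replicates 1 to 5 had 8.87, 8.39, 8.87, 8.48 and 8.44, and the non-metastatic replicates 1 to 8 had 8.19, 10.38, 10.16, 10.12, 9.57, 10.48, 9.56 and 10.85. Non-metastatic replicate 1 was the lowest of all 13 tumours, and the other 7 non-metastatic tumours lay above every metastatic one. The means were 8.61 ± 0.24 in metastatic tumours and 9.91 ± 0.82 in non-metastatic tumours (SD), a difference of -1.30 ± 0.35 (SE) with a limma adjusted p of 0.0463.

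The remaining ADA probe sets gave differences of like size. They were -1.18 ± 0.32 at probe set 3 (limma adjusted p = 0.0476), -1.29 ± 0.36 at probe set 4 (adjusted p = 0.0526) and -1.21 ± 0.36 at probe set 2 (adjusted p = 0.0662). The 4 adjusted p-values thus lay on both sides of the threshold while the differences were within 1 SE of each other. Both calls were lost on leaving out any of 11 of the 13 tumours, all but non-metastatic replicates 1 and 2, with differences of -1.55 to -1.17 at probe set 1.

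Within batch A, where non-metastatic replicate 1 is absent, the ADA values of the groups did not overlap at any of the 4 probe sets, and the difference at probe set 1 was -1.5 ± 0.28 (limma adjusted p = 0.0276). Over all 13 tumours with labelling batch as a block, both ADA calls were lost, at -1.5 for probe set 1 (adjusted p = 0.0637) and -1.37 for probe set 3 (adjusted p = 0.0757). They were also lost when the 3′ to 5′ gap of ACTB was added to the fit (adjusted p = 0.0555 and 0.0814). Between non-metastatic tumours of batches B and A that probe set differed by -0.62 ± 0.54 (adjusted p = 0.439), with 9.49 ± 1.13 in batch B and 10.12 ± 0.65 in batch A.

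**Figure D2:**
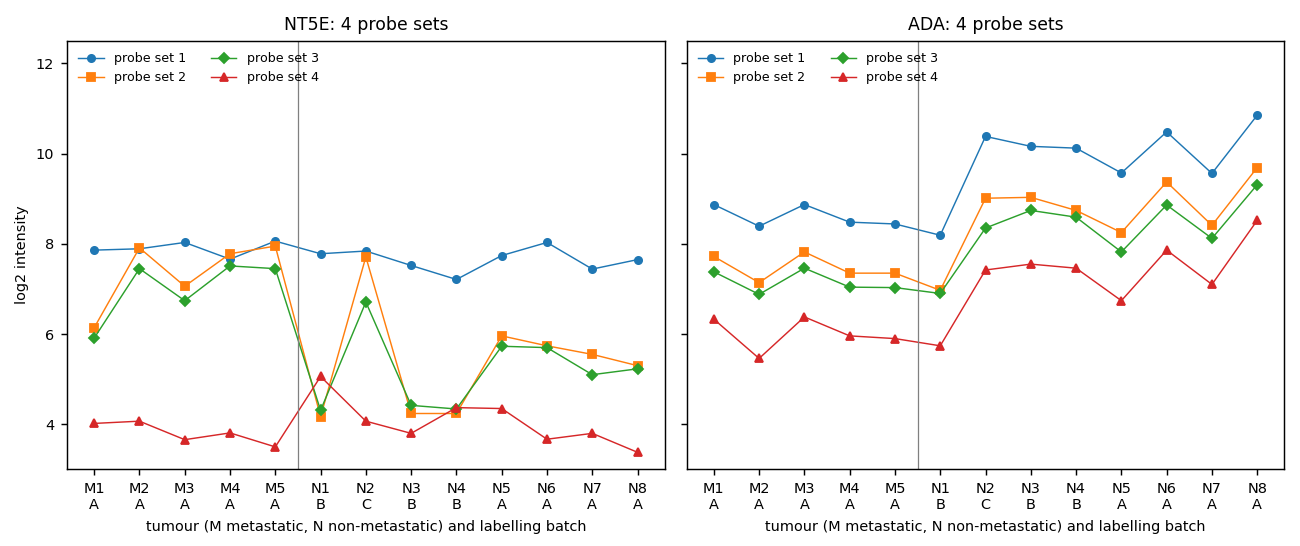
Log2 intensity (vertical axis) at the 4 probe sets of NT5E (left) and of ADA (right) in each tumour (horizontal axis, metastatic M1 to M5 and then non-metastatic N1 to N8, with the labelling batch under each name). Lines join values of 1 probe set and carry no order: the 4 ADA probe sets run in parallel, while probe set 1 of NT5E stays between 7.21 and 8.06 in all tumours.

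Among the adenosine receptors, none passed the test over all 13 tumours. ADORA2B, a low-affinity receptor that couples to Gs and raises cAMP, had the largest difference of the 4. Its values were 7.86, 7.81, 7.09, 6.72 and 8.21 in metastatic replicates 1 to 5, and 4.78, 6.11, 4.87, 4.75, 5.31, 6.83, 6.02 and 8.06 in non-metastatic replicates 1 to 8. Non-metastatic replicates 6 and 8 lay inside the metastatic range and the other 6 under it. The difference was 1.70 ± 0.51 (limma adjusted p = 0.0706), and it passed without non-metastatic replicate 8, at 2.01.

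ADORA2B also followed the labelling batch in its values. The non-metastatic tumours averaged 4.8 ± 0.06 in batch B and 6.56 ± 1.18 in batch A, a difference of -1.76 ± 0.57 (limma adjusted p = 0.0629). Within batch A the difference between metastatic and non-metastatic tumours was 0.98 ± 0.53 (adjusted p = 0.336).

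ADORA2A, the Gs-coupled receptor best known for restraining T cells, was above 7.16 in every tumour. Metastatic replicates 1 to 5 had 8.50, 8.97, 8.53, 8.43 and 8.36, against 7.64 to 8.65 in non-metastatic tumours with a median of 8.41. The 3 lowest values were those of batch B. The difference between the groups was 0.35 ± 0.19 over all tumours (limma adjusted p = 0.278) and 0.06 ± 0.13 within batch A (adjusted p = 0.854), while non-metastatic tumours of batch B were lower than those of batch A by mean, at -0.75 ± 0.12 (adjusted p = 0.0065).

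ADORA1 and ADORA3, which couple to Gi and lower cAMP, stayed under 7.16 in all 13 tumours. ADORA1 had 6.12, 6.14, 6.09, 6.04 and 6.15 in metastatic replicates 1 to 5 and 5.61 to 6.10 in non-metastatic tumours (median 5.74), a difference of 0.31 ± 0.11 (limma adjusted p = 0.113). ADORA3 had 6.44, 6.47, 6.64, 6.48 and 6.29 in metastatic replicates 1 to 5 and 6.07 to 6.78 in non-metastatic tumours (median 6.60), a difference of -0.05 ± 0.14 (adjusted p = 0.837). By the limit of 7.16 neither receptor can be told apart from absence of signal in either group. All values of both receptors nevertheless lay above 5.18, and so above most values without target.

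Counted together, 4 of the 15 probe sets of the 9 genes other than ENTPD2 passed limma's threshold over all 13 tumours, 2 of NT5E higher and 2 of ADA lower in metastatic tumours. With ENTPD2 the count was 5 of 16. Of all 42924 probe sets 4.9% passed, 1.56% higher and 3.34% lower in metastatic tumours. Within batch A the count was 5 of 15, or 6 of 16 with ENTPD2, beside 2.78% of all probe sets. The values of the groups did not overlap at 1 of the 16 probe sets, that of ENTPD2, over all tumours, beside 2.63% of all probe sets, and at 7 of 16 within batch A, beside 9.33%. Nothing is read from these counts, because the list was drawn up with the results of this comparison known. The median difference of the 16 probe sets was -0.02, beside 0.05 over all probe sets.

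**Figure D3:**
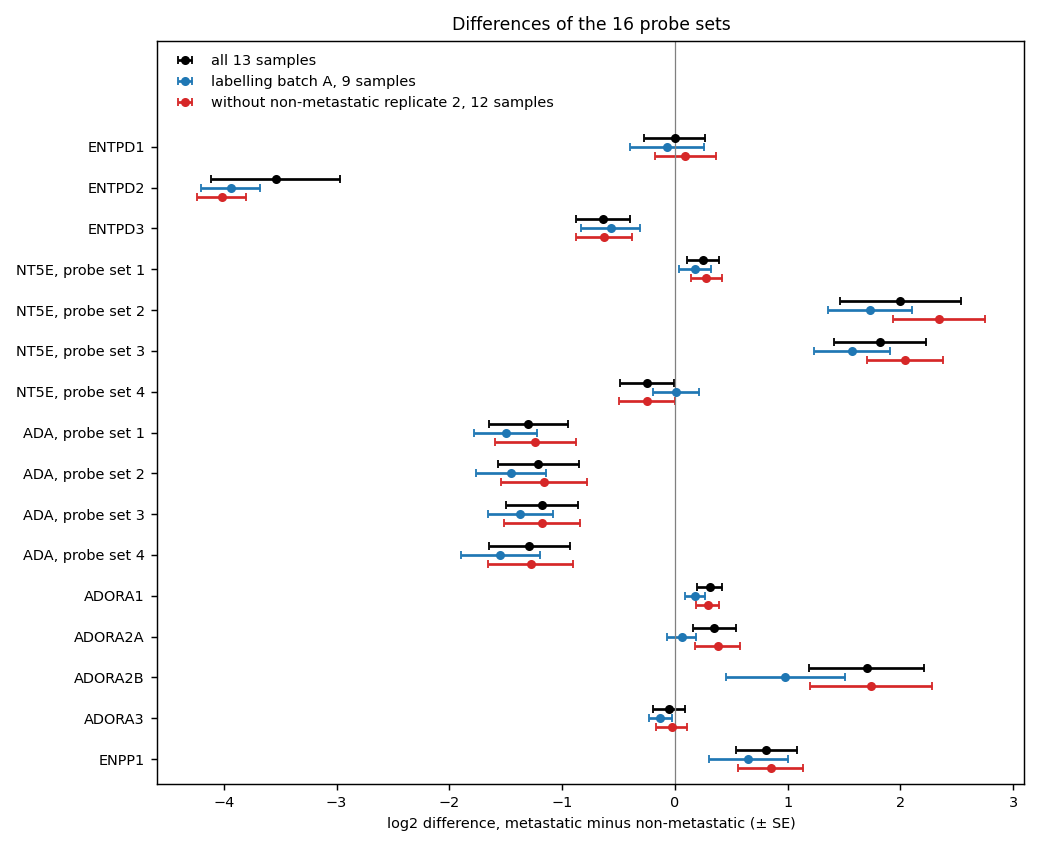
Log2 difference, metastatic minus non-metastatic (horizontal axis), with its SE at each of the 16 probe sets, over all 13 tumours, within labelling batch A and without non-metastatic replicate 2. ENTPD2 lies at -3.54, -3.94 and -4.02 in the 3 fits, the 4 ADA probe sets lie left of 0 and 2 of the 4 NT5E probe sets lie right of 1 in each of them, and ADORA2B comes nearer to 0 within batch A, at 0.98.

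The choice of genes did not use the difference between labelling batches among non-metastatic tumours. Between batches B and A, 3 of the 16 probe sets passed limma's threshold, all lower in batch B, namely 2 of NT5E and that of ADORA2A. Of all probe sets 21.7% passed, so the share among the 16 is near that of the array. The direction was also that of most calls on the array. Of the 15115 named genes, 2579 passed as lower and 649 as higher in batch B. ENTPD2 differed by 0.17 ± 0.35 between these batches (adjusted p = 0.756). Batch and group cannot be told apart in batches B and C, which hold no metastatic tumour.

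The neighbouring genes of the pathway were taken as 4 lists, also drawn up with earlier results known. Of their 91 measured genes, each at the probe set of highest mean, 2 were higher and 3 lower in metastatic tumours at limma's threshold, beside 1.65% and 3.7% of the 15115 named genes. The median difference was 0.15, beside 0.05 for all named genes.

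In the list of adenosine uptake and metabolism 1 of 23 genes passed, PNP, the enzyme after ADA that breaks inosine down to hypoxanthine. It had 9.72, 10.32, 10.13, 9.35 and 10.14 in metastatic replicates 1 to 5 and 11.01 to 11.98 in non-metastatic tumours, with a median of 11.38. The groups did not overlap, and non-metastatic replicate 2, at 11.12, lay with its own group. The difference was -1.54 ± 0.21 (limma adjusted p = 0.00246), it was -1.51 within batch A (adjusted p = 0.0175), and the second probe set of PNP gave -1.90 (adjusted p = 0.00271).

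ADK, which returns adenosine to AMP inside cells, had a difference of -0.45 ± 0.35 (limma adjusted p = 0.432). SLC29A1, the main equilibrative adenosine transporter, had 0.32 ± 0.21 (adjusted p = 0.345). DPP4, a membrane protein that binds ADA on human cells, had -1.42 ± 0.69 (adjusted p = 0.228). None of these 3 passed.

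In the list of G protein and cAMP signalling 2 of 30 genes passed. GNAS, which encodes the Gs alpha subunit that ADORA2A and ADORA2B act through, had 12.41, 12.51, 12.18, 11.64 and 12.84 in metastatic replicates 1 to 5, against 9.96 to 12.12 in non-metastatic tumours with a median of 10.45. Non-metastatic replicate 2, at 12.12, was the only one inside the metastatic range. The difference was 1.68 ± 0.32 (limma adjusted p = 0.0117), and 3 of the 4 GNAS probe sets passed. Within batch A the difference was 1.80 (adjusted p = 0.0133). It did not pass without batch B, at 1.48 (adjusted p = 0.108).

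GNAQ, the alpha subunit that links receptors to phospholipase C, had 7.05, 6.88, 6.67, 6.64 and 6.37 in metastatic replicates 1 to 5 and 5.28 to 6.04 in non-metastatic tumours, with a median of 5.70. The groups did not overlap, though all values lay under 7.16. The difference was 1.04 ± 0.16 over all tumours (limma adjusted p = 0.00385) and 1.03 within batch A (adjusted p = 0.0182).

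In the list of other nucleotide-cleaving enzymes 1 of 17 genes passed. It was NUDT2, an intracellular enzyme that cleaves diadenosine tetraphosphate, with 8.32, 7.39, 7.32, 8.33 and 7.72 in metastatic replicates 1 to 5 and 8.30 to 10.44 in non-metastatic tumours (median 9.66). The difference was -1.77 ± 0.34 (limma adjusted p = 0.0119), but within batch A it was -1.52 and did not pass (adjusted p = 0.0733). Another NUDT2 probe set passed over all tumours (-1.41, adjusted p = 0.0158) and within batch A (-1.21, adjusted p = 0.0439), and the remaining one (-0.56) passed in neither fit. ENPP2, the secreted enzyme autotaxin, had a difference of -1.32 ± 0.54 (adjusted p = 0.164).

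In the list of P2 receptors and ATP release 1 of 21 genes passed. CALHM2, of a family of large-pore channels of which some members release ATP, had 7.19, 8.32, 8.57, 7.94 and 7.28 in metastatic replicates 1 to 5 and 8.14 to 9.52 in non-metastatic tumours (median 9.26). The difference was -1.24 ± 0.27 over all tumours (limma adjusted p = 0.0204) and -1.48 within batch A (adjusted p = 0.0309). The call over all tumours was lost without metastatic replicate 1 or 5, with differences of -1.42 to -1.07 over all tumours left out in turn. It was also lost without batch B (adjusted p = 0.0612). The other CALHM2 probe set gave -0.55 and did not pass over all tumours (adjusted p = 0.0662), but passed within batch A at -0.73 (adjusted p = 0.0423). The ATP channel PANX1 had 0.34 ± 0.14 (adjusted p = 0.179). The connexin GJA1 had 0.63 ± 0.20 at the probe set of highest mean (adjusted p = 0.0813) and 1.98 at another, which passed over all tumours (adjusted p = 0.0469) and not within batch A (1.5, adjusted p = 0.188).

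**Figure D4:**
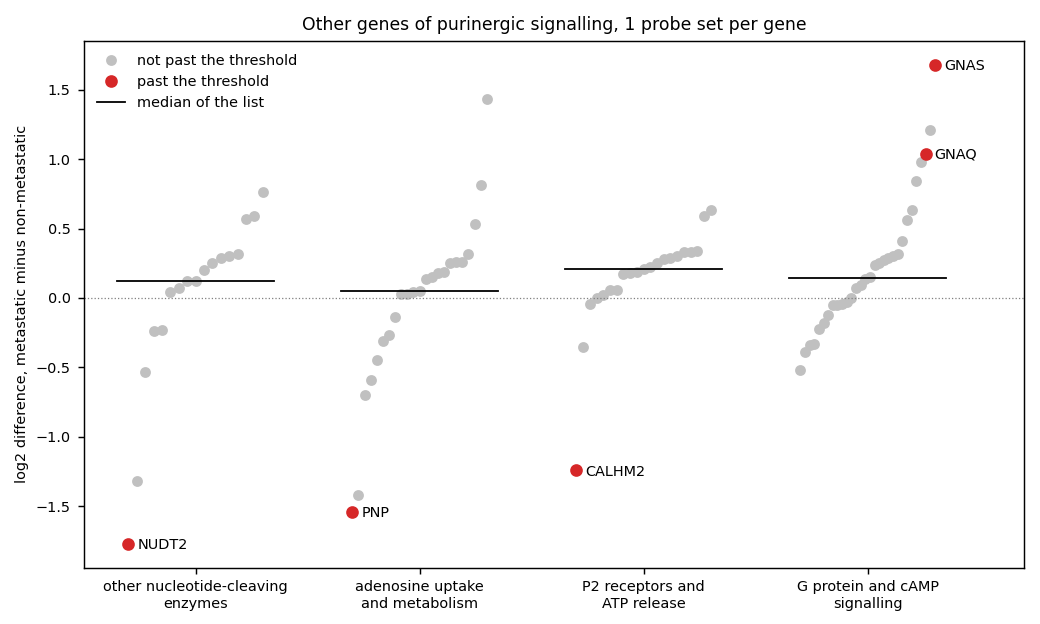
Log2 difference, metastatic minus non-metastatic (vertical axis), of the 91 measured genes of the 4 pathway lists, each point a gene at its probe set of highest mean, sorted by value within its list, with the list's median as a line. The 5 named points passed limma's threshold over all 13 tumours: NUDT2 at -1.77, PNP at -1.54, CALHM2 at -1.24, GNAQ at 1.04 and GNAS at 1.68.

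Markers of the cells that carry these enzymes were read on the same arrays. Over all 15115 named genes 1.65% passed as higher and 3.7% as lower in metastatic tumours. With shares that small, 0 calls in a short list does not show equal cell content. Of the macrophage list, 0 of 12 genes passed in either direction with a median difference of -0.11, and the list mean ran from 7.83 to 9.69 in metastatic tumours and from 8.11 to 9.56 in non-metastatic ones. Of the T and natural killer cell list, 0 of 15 passed with a median of 0.26, and the list mean ran from 6.66 to 7.05 in metastatic tumours and from 6.40 to 6.89 in non-metastatic ones. These are lineages that carry ENTPD1 and ADA, and their ranges overlapped between the groups. The part of these cells in the ENTPD1 and ADA values was not tested.

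Of the endothelial list 0 of 12 genes passed, with a median difference of 0.16 and list means of 7.92 to 8.67 in metastatic tumours and 7.53 to 9.24 in non-metastatic ones. The 3 tumours of batch B were the lowest, at 7.53 to 7.82, and non-metastatic replicate 2 was the highest, at 9.24. Batch B was also lowest among non-metastatic tumours at NT5E probe sets 2 and 3 and at ADORA2A, and non-metastatic replicate 2 was also highest at those NT5E probe sets. This pattern was not particular to endothelium. Batch B also lay under the non-metastatic tumours of batch A in the pericyte and smooth muscle list (7.61 to 8.09 against 8.22 to 8.68). The same held for the T and natural killer cell, Schwann and perineurial, and mast cell lists. In the macrophage, B and plasma cell, fibroblast and epithelial lists the batches overlapped. Non-metastatic replicate 2 was also the highest non-metastatic tumour in the pericyte (9.16), mast cell (8.23), B and plasma cell (6.85) and epithelial (5.92) lists. It was not the highest in the macrophage, T and natural killer cell, Schwann and perineurial, fibroblast and cell division lists. The part of endothelium in the NT5E and ADORA2A values was not tested.

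Of the Schwann and perineurial list 0 of 12 measured genes passed, with a median of 0.20 and list means of 7.09 to 8.0 in metastatic tumours and 6.95 to 7.74 in non-metastatic ones. S100B differed by 0.26 and SOX10 by 0.16. Non-metastatic replicate 2 had a list mean of 7.20, inside both ranges.

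Of the fibroblast list 3 of 13 genes passed, all lower in metastatic tumours, beside 3.7% lower of all named genes. The median difference of the list was -0.14. The list mean ran from 9.87 to 10.97 in metastatic tumours and from 10.76 to 11.93 in non-metastatic ones. The 3 genes that passed were CLEC3B (-4.88), ABCA8 (-3.91) and DCN (-1.28), of which ABCA8 and DCN were chosen after their values were seen. The 10 other genes did not pass, among them COL1A1 (0.01), COL1A2 (-0.03) and LUM (1.82), also chosen after their values were seen. Non-metastatic replicate 2, low in ENTPD2, had a fibroblast list mean of 11.54. Its ABCA8 value, 9.18, was the lowest non-metastatic one, against 10.46 to 11.77 in the others and up to 8.62 in metastatic tumours. Its CLEC3B (12.39) and DCN (13.50) values lay among those of its group. Of the cell division list all 7 measured genes passed as higher in metastatic tumours, beside 1.65% of all named genes. The median difference of that list was 1.88. Their part in the differences of ENTPD2, NT5E and ADA was not tested.

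The mast cell list (0 of 5 passed, median 0.38), the pericyte and smooth muscle list (0 of 10, median 0.14) and the B and plasma cell list (0 of 7, median -0.02) gave no call. Of the epithelial list 1 of 5 genes passed, KRT8 at -3.34 (limma adjusted p = 0.0468), chosen after its value was seen. The call was lost in 10 of the 13 fits that left out a tumour, and within batch A (adjusted p = 0.0719). KRT8 was above 7.16 only in non-metastatic replicates 7 and 8, at 7.46 and 8.84. The epithelial list mean ran from 3.99 to 4.98 in metastatic tumours and from 4.52 to 5.92 in non-metastatic ones. These list means lie within the range of values without target.

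The genes whose values followed ENTPD2 most closely were sought among deviations from the mean of each group and labelling batch, over 12 tumours. They were TSPAN3 (r = 0.964), PTER (0.928), CASTOR1 (0.921), EXOC1 (0.920) and ADAMTSL5 (0.904), given as a description of these arrays. The SD of ENTPD2 was 0.11 in metastatic tumours, 0.65 in non-metastatic tumours of batch A and 0.31 in those of batch B. These r values thus rest mainly on the non-metastatic tumours. PTER lay under 7.16 in every tumour. With deviations from the group means alone, over 13 tumours, the 5 closest genes were led by ATRX (r = 0.969) and shared 0 of 5 with the first. The first measure leaves out non-metastatic replicate 2 and removes the batch means, and the second does neither.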

How the data were processed

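Total RNA of 13 primary tumours was purified on RNeasy columns, labelled with biotin by a 1-cycle 3′ procedure and hybridised to Affymetrix canine arrays, per the labels' protocols. The authors deposited 1 table of 43035 probe sets whose values, 0 to 14.33 with sample medians of 6.71 to 6.94, look like log2 intensities and were taken as such. How they were summarised and normalized is not given in the sources used here. Values were used as deposited, with 111 control probe sets left out. The platform annotation gave 1 symbol for 29254 of 42924 probe sets, several for 439 and none used for 13231. No detection calls were used, and the number of arrays limits the precision.

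Groups came from the labels. The test was limma 3.58.1 in R 4.3.3 on every probe set (lmFit, eBayes, two-sided), with group as the only term, Benjamini-Hochberg adjustment over 42924 probe sets and a threshold of 0.05. Labelling batches were inferred from 12 poly-A spike-in probe sets. Batch A had 3′ values averaging above 6 with a 3′ minus 5′ gap under 2, and batch C had a larger gap. Batch B had 3′ values averaging 6 or less, read as no spike-in signal. The fit was tested on simulated data. Tables and plots used Python 3.11.15, numpy 2.4.6, pandas 2.3.3 and matplotlib 3.10.9.

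The members, the lists and the rule for named genes were chosen with earlier results of these data known. The rule named all 10 members at every probe set, up to 4 genes past the threshold of each pathway list by smallest p, several genes whatever their values (among them ADK, SLC29A1, PNP, DPP4, GJA1, PANX1, ENPP2 and defining markers of cell types), and the 5 genes most like ENTPD2. A gene of a list stands at its probe set of highest mean. Alternatives were quantile or median scaling, batch A alone, batch or replicate number as a block, an ACTB 3′ minus 5′ covariate, a filter on dim probe sets, zeros as missing, a trended robust prior, each tumour left out in turn and, added after seeing the data, leaving out batch B. Sequences and coordinates of the probe sets were not analysed here.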

Additional observations from a re-analysis of the deposited data

Results flagged for a closer look

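Of 76 groups of values checked, 7 held a tumour far from the rest of its group, and chance flags about 1 in 20 groups. ENTPD2 was 4.92 in non-metastatic replicate 2, against 7.75 to 9.26 in the other non-metastatic tumours. That array had the largest 3′ minus 5′ gaps, 3.898 for the spike-ins and 3.14 for ACTB. Their part in its values was not tested. ENTPD1 was 7.71 in metastatic replicate 3, against 6.08 to 6.26 in the other metastatic tumours. ADORA2A was 8.97 in metastatic replicate 2, against 8.36 to 8.53. Among the neighbouring genes, GJA1 was 10.37 in metastatic replicate 1, against 9.49 to 9.65 in the other metastatic tumours, and PANX1 was 5.38 in non-metastatic replicate 2, against 5.87 to 6.28 in the other non-metastatic tumours. Among the markers, FOXP3, of regulatory T cells, was 3.31 in non-metastatic replicate 3, against 4.14 to 4.68. EPCAM, of epithelium, was 7.14 in metastatic replicate 5, against 4.19 to 4.51.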

How the results depend on the processing

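No difference of a named gene that passed the threshold changed sign under any alternative. Of the 16 probe sets, 5 passed over all 13 tumours. The count was 3 with labelling batch as a block and 3 with the ACTB covariate. It was 3 among probe sets at or above the median level alone, and 1 without batch B, which keeps non-metastatic replicate 2. That 1 was probe set 1 of ADA, so ENTPD2 was not among those counted without batch B. The count ran from 1 to 6 when each tumour was left out in turn, and from 4 to 6 under quantile normalization, median centring, zeros as missing, the robust prior and batch A alone. Without metastatic replicate 2 or 4 the 1 was ENTPD2, chosen by this difference, and no probe set of another member passed. Within batch A the count ran from 1 to 5 when each of the 9 tumours was left out, so it is not stable. For batches B and A of the non-metastatic tumours the count was 3, 1 among probe sets at or above the median level alone, and 3 to 4 with each tumour left out. Of the pathway genes 5 passed, 2 without batch B and 12 without non-metastatic replicate 2, with 4 to 12 over all tumours left out in turn. Over all probe sets the count of 2104 was 4478 without non-metastatic replicate 2 and 207 without batch B. The difference of ENTPD2 ran from -4.02 to -3.40 with each tumour left out, a range that does not cover the fit without batch B. Of the 5 genes most like ENTPD2, 0 were shared when deviations were taken from group means alone. For same-numbered tumours of the groups, the correlations of their deviations from group means ran from -0.016 to 0.054. Except for number 5 such tumours lay in different labelling batches, so these values cannot show whether they were paired. With the replicate block 3 of the 16 probe sets and 2 pathway genes passed, and ADORA2B passed at 2.37 (limma adjusted p = 0.0201). The causes of these changes were not tested.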
